A study of Homo sapiens with 8 samples.

Results

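The aminoacyl-tRNA synthetases of the cytosol and of mitochondria, with the scaffold proteins AIMP1, AIMP2 and EEF1E1, were taken by symbol from a table of gene counts, leaving out antisense rows and pseudogenes. All 41 were found among 35394 rows: 21 cytosolic synthetases, counting the 2 that serve both compartments, 17 mitochondrial synthetases and 3 complex partners. All 41 passed the filter on low counts. HCT116, a human colorectal cancer line labelled as carrying a ras mutation, was exposed for 24 h to PZH, short for the herbal and animal-derived Chinese medicine Pien Tze Huang, in 4 samples; the other 4 received DMSO, a solvent. It is a single line at a single time, and no dose is stated in the sources used. Nothing states that replicates were separate cultures, so p-values measure only the spread between these samples.

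Aminoacyl-tRNA synthetases join each amino acid to its transfer RNA, the step that gives the genetic code its meaning. Human cells carry a cytosolic set, which serves the ribosomes of the cytosol, and a mitochondrial set, also encoded in the nucleus, which serves the few proteins made inside mitochondria; GARS and KARS serve both places from the same gene. Several cytosolic enzymes are held with the scaffold proteins AIMP1, AIMP2 and EEF1E1 in the multi-synthetase complex. Under amino acid shortage or stress of the endoplasmic reticulum, the transcription factor ATF4 is known to raise many cytosolic synthetase genes, often through a composite element that it binds together with C/EBP proteins.

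PZH libraries held 18144117 to 18868057 counts and DMSO libraries 19288836 to 19917571. Levels are in CPM, that is counts per equal library size, with TMM factors to correct for library composition. In bulk samples, fewer cells of a type and less RNA per cell cannot be told apart. The labelled epithelial type matched its markers: EPCAM, CDH1, KRT8, KRT18 and KRT19 summed to 2372 to 2698 CPM in PZH and 3832 to 3899 CPM in DMSO, without scaling. KRT8 made up the largest part of this sum, at 829 to 971 CPM in PZH and 2036 to 2082 CPM in DMSO. CDH1 went the other way, at 218 to 237 CPM in PZH and 81.6 to 92.4 CPM in DMSO, while the other markers were lower in PZH. The summed markers of endothelial, immune and erythroid cells lay at or below 1.76 CPM in PZH and 3.11 CPM in DMSO. Fibroblast markers summed to 16.8 to 20.3 CPM in PZH and 11.3 to 13.9 CPM in DMSO, almost all of it COL1A1, with COL1A2 at 0 in every library; the part of these markers in any result was not tested.

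Transcripts of the cytosolic synthetases were mostly higher in PZH-treated cells, and those of the mitochondrial synthetases mostly lower. Of the 21 cytosolic genes, 13 rose, 6 fell and 2 did not pass the test; the median log2 fold change, PZH over DMSO, was 0.28. Of the 17 mitochondrial genes, 4 rose and 13 fell, with a median of -0.63. Of the partners, AIMP1 rose and the other two did not pass. Calls come from the quasi-likelihood test of edgeR, adjusted by Benjamini-Hochberg over 15006 genes, at a threshold of 0.05. Across all genes tested, 39.3% were called higher and 40.9% lower, together 80.3%, with a median log2 fold change of -0.02, so a call in either direction is common in this comparison. At least 2-fold changes were called higher for 7 cytosolic genes and no mitochondrial gene, against 15.8% of all genes, and lower for no cytosolic and 3 mitochondrial genes, against 18.9%. Every PZH library lay above every DMSO library for 12 cytosolic and 3 mitochondrial genes, against 36.6% of all genes, and below for 6 cytosolic and 13 mitochondrial genes, against 38.4%. When no scaling factors were used, the median of all genes moved by -0.26 on the log2 scale, 36.9% of calls were higher, against 49.0% with TMM factors, and the split became 10 higher and 8 lower for the cytosolic genes and 2 higher and 13 lower for the mitochondrial genes.

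**Figure D1:**
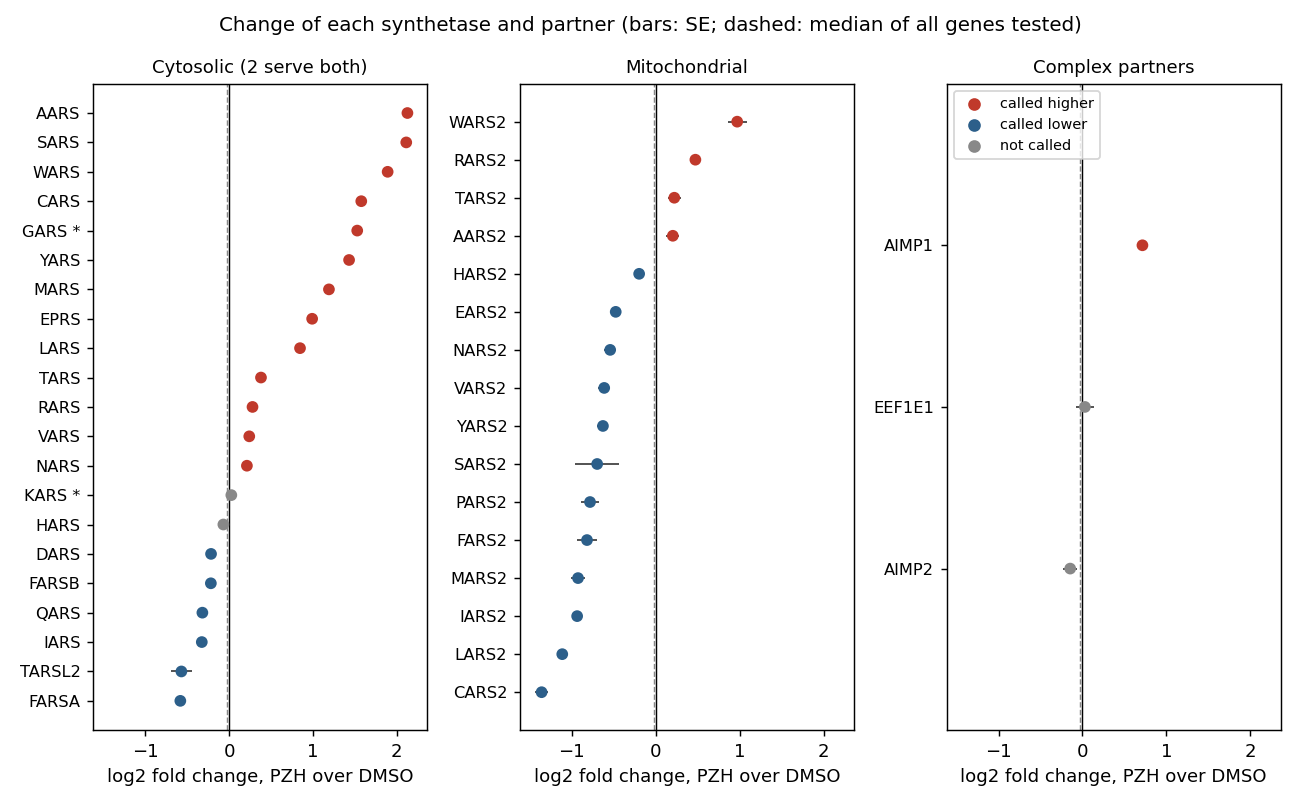
Log2 fold change of the reported genes, PZH over DMSO, with its standard error, for cytosolic synthetases (an asterisk marks the 2 that serve both compartments), mitochondrial synthetases and complex partners; the dashed line is the median of all genes tested. Cytosolic genes run from -0.58 to 2.13 and mitochondrial genes from -1.36 to 0.97.

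The largest rises belonged to 6 cytosolic genes that charge alanine, serine, tryptophan, cysteine, glycine and tyrosine. AARS, the alanyl-tRNA synthetase, was measured at 1189, 1311, 1324 and 1365 CPM in PZH libraries 1 to 4, against 295, 297, 293 and 304 CPM in DMSO. SARS, which charges serine tRNAs and also selenocysteine tRNA, stood at 657, 758, 735 and 746 CPM in PZH, against 177, 169.5, 160.0 and 164 CPM in DMSO. In both genes the groups lay far apart, and PZH replicate 1 was the lowest of the treated libraries. AARS rose 4.36-fold (log2 fold change 2.13 ± 0.053, SE; adjusted p = 6.16e-20) and SARS 4.32-fold (2.11 ± 0.055; adjusted p = 1.22e-19).

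WARS, the tryptophanyl-tRNA synthetase, which is also known as an interferon-gamma-induced gene, had 511, 493, 547 and 529 CPM in PZH, against 139.9, 145, 135 and 142 CPM in DMSO. CARS, the cysteinyl-tRNA synthetase, had 240.5, 246, 245 and 239.6 CPM in PZH, against 77.9, 87.4, 78.9 and 81.8 CPM in DMSO. Every treated library exceeded every control library for both, and the PZH libraries differed little for CARS, with a coefficient of variation of 1.36%. WARS rose 3.71-fold and CARS 2.98-fold (log2 fold changes 1.89 ± 0.049 and 1.58 ± 0.047).

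GARS, which makes glycyl-tRNA for both compartments, had 723, 791, 816 and 844 CPM in PZH, against 267, 279, 275 and 279 CPM in DMSO. YARS, the tyrosyl-tRNA synthetase, had 679.8, 742, 767 and 775 CPM in PZH, against 269, 281, 263 and 286 CPM in DMSO. They rose 2.88-fold and 2.70-fold (log2 fold changes 1.53 ± 0.052 and 1.43 ± 0.053), again with groups that did not overlap. The log2 fold changes of these 6 genes stood between the 91.1th percentile (YARS) and the 96.0th percentile (AARS) of all genes tested. None of the 6 belongs to the multi-synthetase complex.

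**Figure D2:**
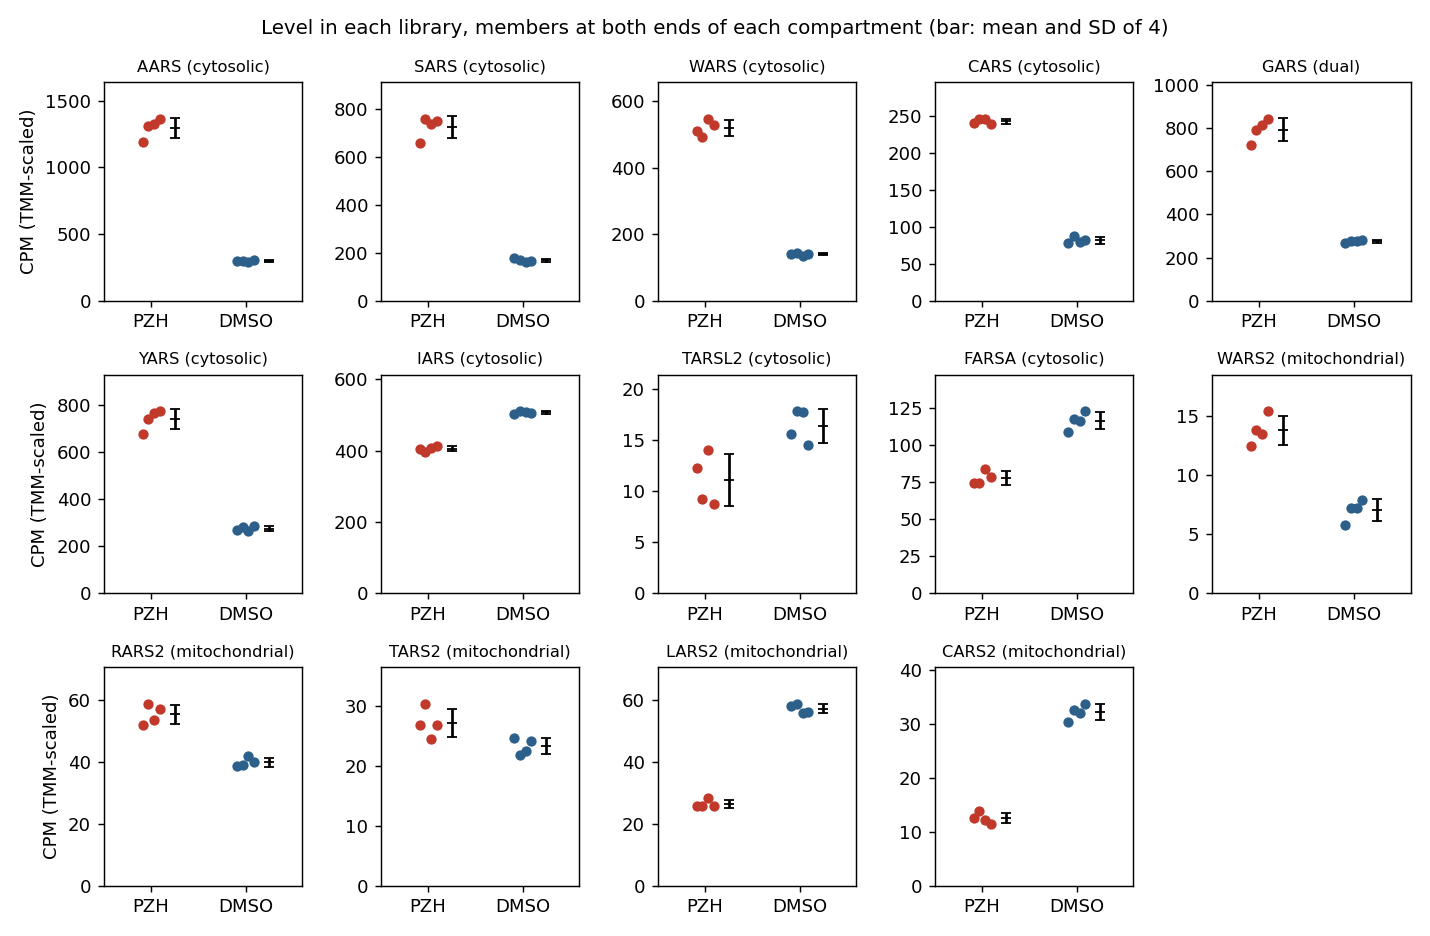
TMM-scaled CPM in each library for the 6 cytosolic genes with the largest and the 3 with the lowest log2 fold change and mitochondrial genes from each end of their set, PZH left of DMSO, with the mean and SD of 4 libraries beside the points. AARS lies at 1189 to 1365 CPM in PZH and 293 to 304 CPM in DMSO, whereas CARS2 lies at 11.5 to 13.8 CPM in PZH and 30.4 to 33.8 CPM in DMSO.

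The 8 synthetases of the complex moved in both directions, with 4 higher, 3 lower and 1 not called (median log2 fold change 0.15). Of the 13 cytosolic synthetases outside it, 9 were higher, 3 lower and 1 not called (median 0.38). Among all genes tested, 39.3% were called higher and 40.9% lower, so the counts of the complex lie near these shares. The difference between the 2 sets was not tested. Within the complex, MARS, which supplies methionine for both initiation and elongation, averaged 503 ± 13.3 CPM in PZH and 220.4 ± 6.61 CPM in DMSO (SD, n = 4 each), a 2.28-fold rise. EPRS, which charges both glutamate and proline tRNAs in a fused protein, averaged 725 ± 35.8 CPM in PZH and 365 ± 1.53 CPM in DMSO, a 1.99-fold rise. LARS, the leucyl-tRNA synthetase, which is also known as a leucine sensor for mTORC1, rose 1.80-fold, and the arginyl-tRNA synthetase RARS rose 1.21-fold; RARS lost its call without scaling factors (log2 fold change 0.02). IARS, QARS and DARS, for isoleucine, glutamine and aspartate, fell.

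MARS overlaps DDIT3 on the opposite strand in the annotation: 355 bases, or 5.05%, of its merged exons are shared. DDIT3, which encodes the stress factor CHOP, had 5891 to 7054 counts in PZH, against 76 to 109 in DMSO, while MARS had 8410 to 8587 counts in PZH, against 4605 to 4840 in DMSO. The sources used here do not say whether strand was used in counting, and the part of DDIT3 reads in the MARS value was not tested.

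KARS, the lysyl-tRNA synthetase of both compartments and a member of the complex, had 234, 269, 264 and 264 CPM in PZH, against 242, 259, 250.4 and 260.1 CPM in DMSO. The groups overlapped, and the log2 fold change of 0.03 ± 0.050 did not pass (adjusted p = 0.618); without scaling factors KARS was called lower (-0.23). The 2 genes that serve both compartments therefore differed in their calls, GARS being called higher and KARS not called; the difference between their changes was not tested. HARS, the histidyl-tRNA synthetase, had 109.5, 98.0, 109 and 107 CPM in PZH, against 116, 106, 109 and 113 CPM in DMSO, overlapping groups that did not pass either (log2 fold change -0.07 ± 0.049; adjusted p = 0.204). HARS was called lower with upper quartile factors (-0.14) and without scaling factors (-0.33).

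Among the scaffold proteins, AIMP1 had 90.3, 104, 85.5 and 86.2 CPM in PZH, against 53.5, 59.0, 54.4 and 56.4 CPM in DMSO. All treated libraries lay above all controls, and AIMP1, whose protein is also the precursor of the secreted cytokine EMAP II, rose 1.64-fold (log2 fold change 0.71 ± 0.060; adjusted p = 1.93e-10). AIMP2, the central scaffold, had 21.4, 25.4, 21.9 and 24.0 CPM in PZH, against 21.97, 26.5, 27.5 and 26.6 CPM in DMSO. EEF1E1, also called AIMP3, had 18.9, 21.4, 15.8 and 17.8 CPM in PZH, against 15.7, 20.5, 20.1 and 16.2 CPM in DMSO. For both the groups overlapped and the test was not passed (log2 fold changes -0.15 ± 0.082 and 0.03 ± 0.103; adjusted p = 0.104 and 0.802). AIMP2 was called lower with upper quartile factors (log2 fold change -0.22), without scaling factors (-0.41), without DMSO replicate 1 (-0.22) and without PZH replicate 2 (-0.19). EEF1E1 passed the test under no setting tried, and its sign turned in several of them. AIMP2 shares 28.9% of its merged exons with EIF2AK1 on the opposite strand, which fell in PZH (log2 fold change -0.74 ± 0.044); its part in the AIMP2 value was not tested.

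The lowest log2 fold changes of the cytosolic set were those of FARSA, TARSL2 and IARS. FARSA, the catalytic subunit of the phenylalanyl-tRNA synthetase, had 74.3, 74.5, 84.1 and 78.7 CPM in PZH, against 109, 118, 116 and 123 CPM in DMSO. TARSL2, a cytosolic threonyl-tRNA synthetase beside TARS, had 12.3, 9.26, 14.1 and 8.71 CPM in PZH, against 15.6, 17.9, 17.8 and 14.5 CPM in DMSO. IARS had 406, 396, 407 and 412 CPM in PZH, against 503, 511, 509 and 506 CPM in DMSO. No treated library reached any control in these genes, although for TARSL2 the gap between 14.1 and 14.5 CPM was narrow.

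FARSA fell 1.495-fold, TARSL2 1.48-fold and IARS 1.25-fold (log2 fold changes -0.58 ± 0.052, -0.57 ± 0.125 and -0.32 ± 0.044). FARSB, the partner subunit of FARSA in the same enzyme, fell 1.16-fold, so both subunits were lower. The main threonine gene, TARS, went the other way from TARSL2: it averaged 372 ± 24.98 CPM in PZH and 286 ± 10.6 CPM in DMSO, a 1.302-fold rise. Smaller rises were called for VARS (valine, 1.18-fold, with overlapping groups) and NARS (asparagine, 1.16-fold); both lost their calls and had negative log2 fold changes of -0.019 and -0.045 without scaling factors. By structural class, 7 of 9 class I cytosolic enzymes were higher and 2 lower, and 5 of 11 class II enzymes were higher and 4 lower. Among all genes tested, 39.3% were called higher and 40.9% lower, so the class II counts lie near these shares. The difference between classes was not tested. EPRS holds a domain of each class and stands in neither count.

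Levels of different genes can be set side by side only per length, here CPM per kilobase of merged exons in the GENCODE annotation, which may not be the annotation used for counting. In PZH, AARS led with 288 ± 16.9, followed by GARS with 191 ± 12.5, SARS with 189 ± 11.9 and EPRS with 133 ± 6.57 CPM per kilobase. In DMSO, IARS, EPRS, GARS and AARS stood close together, at 68.6 ± 0.458, 66.9 ± 0.280, 66.3 ± 1.38 and 66.1 ± 1.11. On that scale IARS was number 1 of the 41 genes in DMSO and number 12 in PZH, and SARS was number 12 in DMSO and number 3 in PZH. GARS and SARS in PZH, and EPRS, GARS and AARS in DMSO, did not differ beyond their spread. Of the mitochondrial genes, IARS2 was highest per kilobase, at 30.6 ± 1.33 in PZH and 58.6 ± 2.60 in DMSO.

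The mitochondrial set was lower in 13 of 17 cases, against 40.9% of all genes tested. Of these, 3 fell at least 2-fold, a count near the 18.9% of all genes that did so. CARS2, the cysteinyl-tRNA synthetase of mitochondria, had 12.6, 13.8, 12.2 and 11.5 CPM in PZH, against 30.4, 32.7, 32.0 and 33.8 CPM in DMSO. LARS2, the leucyl enzyme, had 25.9, 25.7, 28.5 and 25.8 CPM in PZH, against 58.3, 58.9, 56.0 and 56.2 CPM in DMSO. The groups were well apart in both genes, with treated libraries no higher than 13.8 CPM for CARS2 and 28.5 CPM for LARS2. CARS2 fell 2.57-fold and LARS2 2.16-fold (log2 fold changes -1.36 ± 0.077 and -1.11 ± 0.058; adjusted p = 1.71e-13 and 3.11e-14).

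IARS2, the most abundant of the set, fell 1.91-fold, with 127 ± 5.55 CPM in PZH and 244 ± 10.8 CPM in DMSO, and MARS2 fell 1.90-fold. FARS2, PARS2, YARS2, VARS2, NARS2, EARS2 and HARS2 fell between 1.76-fold (FARS2) and 1.15-fold (HARS2), all with groups that did not overlap. In the annotation HARS2 shares 11.7% of its merged exons with HARS on the opposite strand, and VARS2 shares 21.99% with GTF2H4 on its own strand, so their values are uncertain where counting split or dropped shared reads. SARS2 was scarcely counted, with 15 to 25 counts in PZH and 33 to 45 in DMSO. Its call (log2 fold change -0.70 ± 0.264; adjusted p = 0.0196) was lost without DMSO replicate 3 (adjusted p = 0.0648) or PZH replicate 1 (adjusted p = 0.0653), and 57% of its merged exons are shared with other genes.

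WARS2, RARS2, TARS2 and AARS2 were the 4 mitochondrial genes called higher. WARS2, the tryptophanyl enzyme, had 12.5, 13.8, 13.5 and 15.4 CPM in PZH, against 5.74, 7.23, 7.25 and 7.92 CPM in DMSO. RARS2, the arginyl enzyme, had 52.1, 58.9, 53.7 and 57.2 CPM in PZH, against 38.8, 39.1, 42.1 and 39.9 CPM in DMSO. Both rose with groups that did not overlap, 1.96-fold and 1.39-fold (log2 fold changes 0.97 ± 0.114 and 0.47 ± 0.056). TARS2 had 26.8, 30.4, 24.55 and 26.9 CPM in PZH, against 24.62, 21.9, 22.5 and 24.2 CPM in DMSO. Its groups overlapped slightly, with a log2 fold change of 0.22 ± 0.075 (adjusted p = 0.0103). AARS2 had 22.4, 20.2, 23.1 and 22.1 CPM in PZH, against 20.01, 18.1, 18.1 and 19.998 CPM in DMSO, a log2 fold change of 0.20 ± 0.077 (adjusted p = 0.0196). The calls of TARS2 and AARS2 ended with upper quartile factors and without scaling factors, where both signs turned (-0.038 and -0.055), and that of AARS2 also without a filter on low counts (adjusted p = 0.0563) and without DMSO replicate 2 (0.0656) or DMSO replicate 3 (0.0692).

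As a share of each library's counts, the cytosolic synthetases together took 0.755%, 0.755%, 0.776% and 0.772% in PZH, against 0.486%, 0.494%, 0.486% and 0.494% in DMSO. The mitochondrial synthetases took 0.0478%, 0.0464%, 0.0446% and 0.0462% in PZH, against 0.0852%, 0.0825%, 0.0834% and 0.0850% in DMSO. Neither sum overlapped between the groups. These shares use raw counts, that is no scaling factors, and the size of the change depends on that choice. With TMM factors the cytosolic sum averaged 8367 CPM in PZH and 4481 CPM in DMSO. The mitochondrial sum averaged 506 CPM in PZH and 768 CPM in DMSO. The cytosolic share in PZH was 1.56 times that in DMSO and the mitochondrial share 0.550 times. The partners took 0.0122% ± 0.00106 in PZH and 0.0109% ± 0.000658 in DMSO (SD, n = 4 each), with overlapping groups. The sums are led by abundant genes. Without AARS the cytosolic difference, PZH minus DMSO, was 0.188 percentage points, against 0.274 with it. Without IARS2 the mitochondrial difference was -0.0227 percentage points, against -0.0378 with it. Without AIMP1 the partner difference was -0.000983 percentage points, against 0.00128 with it, so its sign turned.

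**Figure D3:**
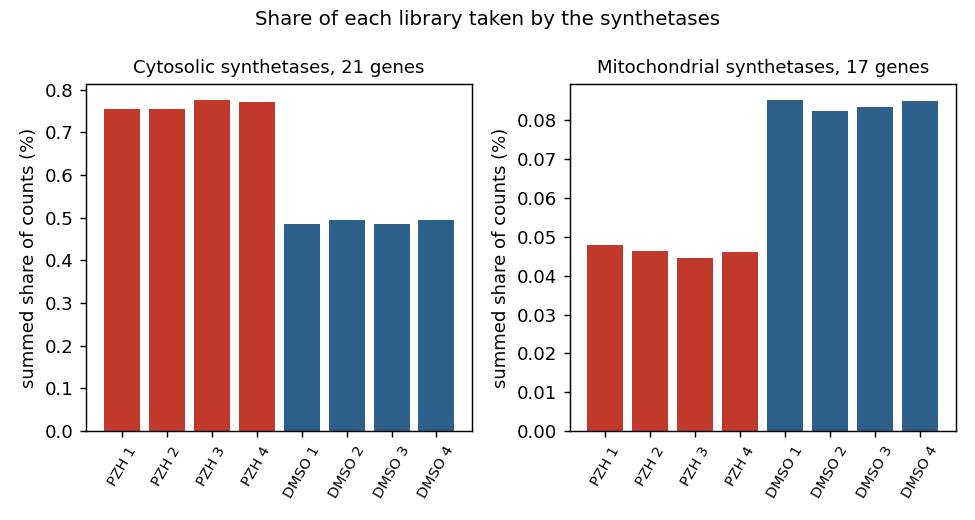
Summed share of counts, in percent of each library, taken by the 21 cytosolic synthetases and the 17 mitochondrial synthetases, a bar for each library with PZH left of DMSO. The cytosolic bars lie at 0.755% to 0.776% in PZH and 0.486% to 0.494% in DMSO; the mitochondrial bars lie at 0.0446% to 0.0478% in PZH and 0.0825% to 0.0852% in DMSO.

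For 17 pairs of a cytosolic gene and the mitochondrial gene of the same amino acid, the ratio of their counts was formed within each library, where scaling factors cancel. In 13 pairs the ratio was higher in every PZH library than in any DMSO library, in 1 it was lower, and in 3 the groups overlapped. Groups that do not overlap are common in these libraries, with 36.6% of single genes above and 38.4% below, and the share among ratios of other genes was not computed. CARS over CARS2 stood at 19.0, 17.8, 19.97 and 20.8 in PZH, against 2.56, 2.67, 2.46 and 2.42 in DMSO, a 7.66-fold change of the ratio (log2 change 2.94 ± 0.058, SE). MARS over MARS2 stood at 33.1, 31.3, 42.1 and 37.3 in PZH, against 7.61, 8.44, 8.71 and 8.11 in DMSO, a 4.35-fold change. In these pairs the cytosolic gene rose while the mitochondrial gene fell.

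YARS over YARS2 changed 4.17-fold, LARS over LARS2 3.89-fold and AARS over AARS2 3.79-fold. EPRS, which covers 2 amino acids, changed 3.43-fold over PARS2 and 2.76-fold over EARS2. IARS over IARS2 changed 1.53-fold although both genes fell, the mitochondrial gene falling further. WARS over WARS2 changed 1.89-fold although both rose. SARS over SARS2 changed 7.02-fold, but rests on the low counts of SARS2. Each of the 14 non-overlapping pairs reached p = 0.0286 in the exact two-sided permutation test, the smallest that 70 assignments of the samples allow (0.0347 after Benjamini-Hochberg adjustment over the 17 pairs).

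RARS over RARS2 was the pair that was lower, at 3.72, 3.34, 3.40 and 3.30 in PZH, against 3.86, 3.92, 3.89 and 4.02 in DMSO (log2 change -0.19 ± 0.041); its adjusted p was 0.0648 to 0.0694 on leaving out any DMSO library. FARSA over FARS2 (log2 change 0.24 ± 0.098, exact permutation p = 0.0571), TARS over TARS2 (0.16 ± 0.124, exact p = 0.257) and HARS over HARS2 (0.13 ± 0.065, exact p = 0.114) did not pass; without PZH replicate 2, TARS over TARS2 did (log2 change 0.26, adjusted p = 0.0324).

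**Figure D4:**
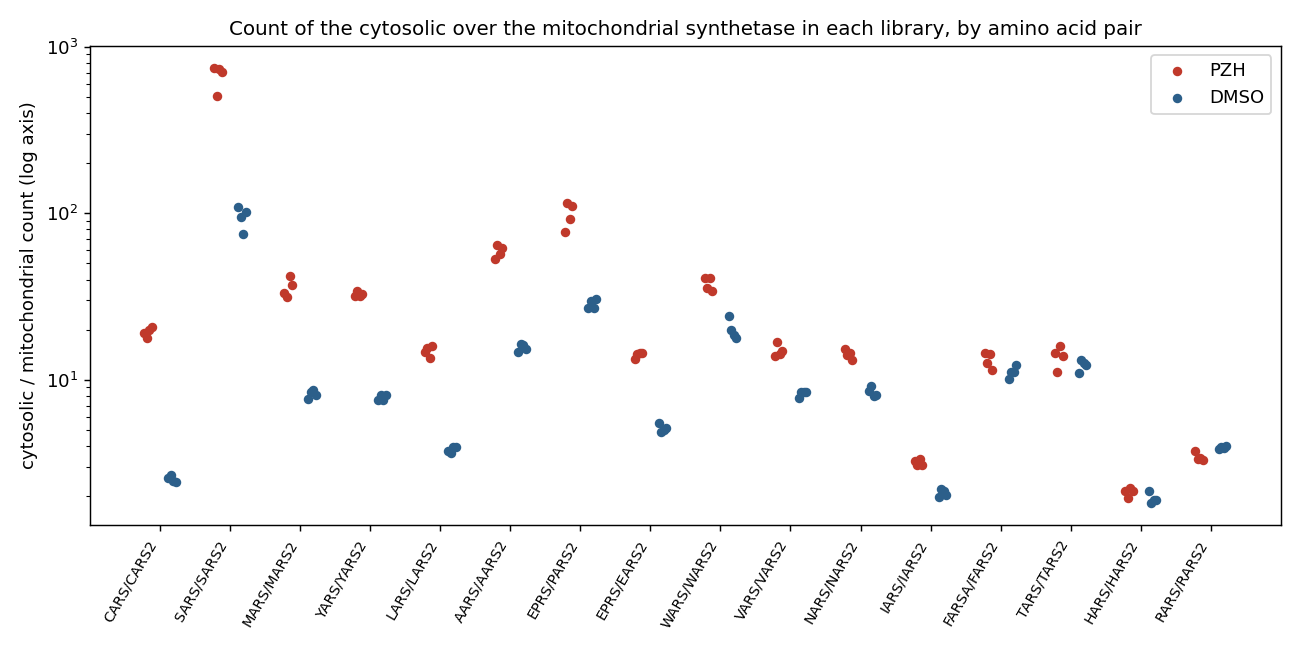
Count of the cytosolic gene divided by the count of the mitochondrial gene of the same amino acid in each library, for the reported pairs on a log axis, PZH left of DMSO in each pair, ordered by the change. CARS over CARS2 lies at 17.8 to 20.8 in PZH and 2.42 to 2.67 in DMSO; RARS over RARS2 lies at 3.30 to 3.72 in PZH and 3.86 to 4.02 in DMSO.

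Because many cytosolic members rose together, their promoters were searched for the composite element that ATF4 binds with C/EBP proteins. Promoter windows of 300 bases (250 before and 50 after the transcription start) were taken from RefSeq's GRCh38.p14 table, where 33 of the 41 genes matched; DARS, LARS, TARSL2, VARS, YARS, AARS2 and VARS2 were among those that did not. The letters TGATGNAA, on either strand, were found in windows of 7 of 16 cytosolic synthetases, 1 of 14 mitochondrial synthetases and 0 of 3 partners, against 4.46% of all 27305 genes of the table. No match overlapped one of the other motifs searched. The stretches around the matches in the cytosolic genes are shown to let the shared letters be seen, read 5′ to 3′ on the strand of the gene, with the element in capitals:
AARS: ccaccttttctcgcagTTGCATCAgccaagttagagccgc
CARS: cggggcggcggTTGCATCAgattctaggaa
GARS: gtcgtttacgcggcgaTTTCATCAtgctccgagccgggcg
MARS: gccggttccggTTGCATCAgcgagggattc
TARS: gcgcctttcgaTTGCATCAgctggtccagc
NARS: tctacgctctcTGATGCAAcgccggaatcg
IARS: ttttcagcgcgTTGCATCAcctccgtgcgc

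The AARS stretch is chr16:70289670-70289709 on the minus strand, with the element beginning 187 bases before the start. The CARS stretch is chr11:3057407-3057436 (minus strand), the GARS stretch chr7:30594829-30594868 (plus strand), the MARS stretch chr12:57488053-57488082 (plus strand), the TARS stretch chr5:33440956-33440985 (plus strand), the NARS stretch chr18:57621804-57621833 (minus strand) and the IARS stretch chr9:92293692-92293721 (minus strand). In CARS, GARS, MARS and IARS the element begins 2, 33, 4 and 13 bases before the start, and in TARS and NARS at bases 3 and 15 of the transcript. CARS, GARS and TARS had 2 promoter windows each, from different starts. Their positions count from the start of the window that held the match. All but GARS carry the same 8 letters, TTGCATCA or its reverse complement TGATGCAA.

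Of the 7 cytosolic genes with a match, 6 were called higher and IARS lower, with a median log2 fold change of 1.19. Of the 9 without, 4 were called higher, with a median of 0.03. Among all genes tested, 39.3% were called higher. SARS and WARS, next after AARS in size of log2 fold change, had no match in these windows. YARS2, the mitochondrial gene with a match, fell (log2 fold change -0.63 ± 0.065). ATF4 itself averaged 1302 ± 91.8 CPM in PZH and 346 ± 18.9 CPM in DMSO, and its target ASNS, the asparagine synthetase, 72.3 ± 6.84 CPM in PZH and 3.24 ± 0.539 CPM in DMSO. A match of letters is a description of the window and does not show binding.

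**Figure D5:**
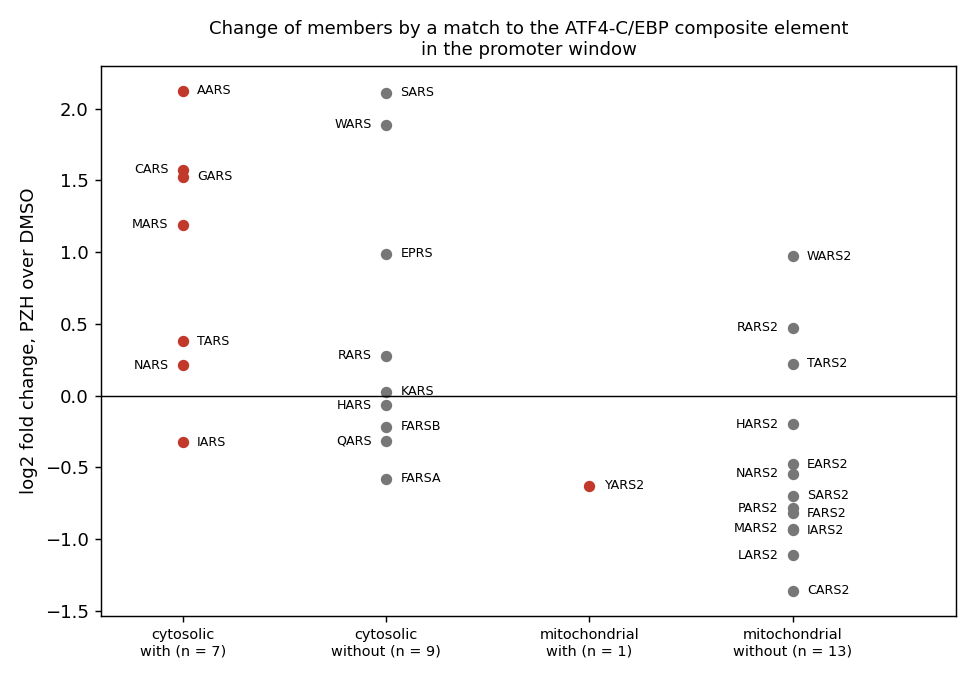
Log2 fold change, PZH over DMSO, of the cytosolic and mitochondrial synthetases with a promoter window in the table, split by whether the window holds the composite element. The 7 cytosolic genes with a match run from -0.32 (IARS) to 2.13 (AARS), and the 9 without from -0.58 (FARSA) to 2.11 (SARS).

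The other motifs were searched the same way. The ETS motif CCGGAAG was found in 9 of 16 cytosolic and 7 of 14 mitochondrial synthetases, against 12.2% of all genes. The motif of nuclear respiratory factor NRF1 was found in 3 of 16 and 3 of 14, against 6.98%. The E-box CACGTG was found in 1 of 16 and 3 of 14, against 8.77%. Calls of cytosolic genes split by the ETS motif too. With it, 7 of 9 were called higher (median log2 fold change 0.38). Of the rest of the 16, without it, 3 were (median -0.22). The share called higher among all genes tested was 39.3%, so the count without the motif lies near it. For NRF1 the medians were 0.38 in the 3 cytosolic genes with it and 0.28 in those without. The E-box was matched in IARS alone of the cytosolic genes (log2 fold change -0.32), and the median without it was 0.38. Differences between motifs were not tested.

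Other genes around tRNA charging were taken as 5 lists. Calls in these lists stand beside shares of 39.3% higher and 40.9% lower among all genes tested. In the list of nuclear tRNA maturation and export, 3 of 20 rose and 14 fell (median log2 fold change -0.42). XPOT, the tRNA export receptor, averaged 560.5 ± 6.92 CPM in PZH and 188 ± 0.965 CPM in DMSO (log2 fold change 1.58 ± 0.044), while POP1, POP5 and RPP25, subunits of the RNase P and MRP enzymes, fell (log2 fold changes -1.63, -1.50 and -2.29). Of the genes that mature mitochondrial tRNAs, 1 of 12 rose and 10 fell (median -0.40). TRMT10C and ELAC2, which take part in maturing mitochondrial tRNAs, fell (-1.44 and -1.08), as did TRMU, which thiolates them (-0.92). MTO1, which modifies the wobble base, rose (1.13 ± 0.052).

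Elongation factors that deliver charged tRNA were 3 higher and 3 lower of the 6 found of 7. EEF1A1 and EEF1B2 of the cytosol rose (log2 fold changes 1.41 and 0.70), while TUFM and TSFM of mitochondria fell (-0.96 and -1.10). The cytosolic EEF1A2, named after its values were seen, also fell, with 424 ± 34.8 CPM in PZH and 496 ± 7.64 CPM in DMSO (log2 fold change -0.23 ± 0.054; adjusted p = 0.000658). Among 9 genes of indirect charging, proofreading and formylation, 5 rose and 4 fell. GATB, a subunit of the enzyme that makes mitochondrial glutaminyl-tRNA, averaged 12.3 ± 0.783 CPM in PZH and 37.4 ± 2.74 CPM in DMSO (-1.60 ± 0.077). Its partner subunits GATC and QRSL1, named after their values were seen, did not follow it closely. GATC fell less (-0.27 ± 0.061), and QRSL1 was called higher with overlapping groups (0.16 ± 0.063). MTFMT, which formylates the mitochondrial initiator, fell (-0.63). SEPSECS and PSTK, which turn seryl-tRNA made by SARS into selenocysteinyl-tRNA, rose (1.00 and 0.87). Genes of RNA polymerase III and its factors, which transcribe tRNA genes, were 7 higher and 10 lower of 19 (median -0.24), with POLR3D, POLR3C and GTF3C3 higher (1.45, 1.24 and 0.72). Without scaling factors, 1 gene of tRNA maturation and export and 3 of indirect charging were called higher. Among all genes, 39.3% and 40.9% were called higher and lower.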

How the data were processed

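The authors deposited 1 table of raw counts per gene symbol, with a column for each of 8 libraries and no normalization. Per the labels' protocols, total RNA was extracted with Trizol, enriched for poly(A) RNA and made into libraries with an NEBNext Ultra kit. HISAT2 2.1.0, DESeq 1.28.0, FastQC 0.11.5 and StringTie 1.3.3b appear, without roles, in the submitters' processing notes; the sources used here give no build, annotation or use of strand.

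Genes were filtered with filterByExpr (minimum count 10, minimum total 15), scaled with TMM and compared with edgeR 4.0.16 (R 4.3.3). The fit ran over the whole table with group as the only term. The procedure was checked on simulated counts in which few genes changed, equally often up and down. In the data 80.3% of genes were called, so that check could not test the choice of scaling factors. Standard errors were taken as |log2 fold change| over root F. Pair ratios used counts plus 0.5. Exon lengths and overlaps came from GENCODE 29 (GRCh38), where symbols matched. Protein sequences were not used here. No replicate was treated as a duplicate, since chi-square over degrees of freedom within groups ran from 2.24 to 9.87. Named genes were all members, with values by library for those at the ends of each set, the partners, both genes of 2 compartments and members not called, and up to 4 called genes of each other list with the smallest p. Members, lists and motifs were chosen with earlier results of these data known. Alternatives were RLE, upper quartile or no scaling factors, no filter, a CPM filter, DESeq2 1.42.0, limma-voom (limma 3.58.1), robust empirical Bayes, a replicate block, a threshold of 0.01 and leaving out each library. Fits with only PZH replicates 1 and 2, or 3 and 4, were chosen after seeing the data. Values of some genes are not reported here.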

Additional observations from a re-analysis of the deposited data

Results flagged for a closer look

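Among 90 groups of 4 libraries checked for a library far from the other 3 (each gene in PZH and in DMSO, plus library totals and summed shares), 7 held one, where chance gives about 1 in 20 groups. In PZH replicate 1, VARS stood at 291 CPM, against 334 to 336 CPM in the other PZH libraries, KARS at 234 CPM, against 264 to 269 CPM, and QARS at 140.4 CPM, against 151 to 152 CPM. In DMSO replicate 1, QARS stood at 174 CPM, against 188 to 189.8 CPM in the other DMSO libraries. In PZH replicate 3, EARS2 stood at 48.1 CPM, against 52.1 to 52.7 CPM, NARS2 at 19.2 CPM, against 20.4 to 20.6 CPM, and LARS2, the highest of its group, at 28.5 CPM, against 25.7 to 25.9 CPM.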

How the results depend on the processing

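Under RLE factors, DESeq2, limma-voom, robust empirical Bayes, a CPM filter and the replicate block, all 41 calls were as reported; with the block 13 cytosolic genes were higher and 6 lower. The replicate numbers did not pair the libraries (correlation of deviations 0.000736 to 0.0113), and the block shifted no call. Mitochondrial genes called higher numbered 2 with upper quartile factors, without scaling factors and at a threshold of 0.01, against 4 as reported. Partners called lower numbered 1 with upper quartile factors and without scaling factors, and 0 to 1 on leaving out each library. Without scaling factors, genes called higher numbered 3 for indirect charging and 1 for tRNA maturation and export. Signs turned with upper quartile factors for KARS (-0.047) and EEF1E1 (-0.045), and without scaling factors for NARS (-0.045), VARS (-0.019), KARS (-0.23), AARS2 (-0.055), TARS2 (-0.038) and EEF1E1 (-0.23). EEF1E1 also turned on leaving out single libraries (-0.042 to 0.11) and with PZH replicates 3 and 4 only (-0.085). Without the most abundant gene, the PZH minus DMSO difference of summed shares was 0.188 percentage points for the cytosolic set, -0.0227 for the mitochondrial set and -0.000983 for the partners. In the paired version of the ratio test the smallest p is 0.125, so no pair could pass. The causes were not tested. SARS2 had 15 to 25 counts in PZH and 33 to 45 in DMSO.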

Other observations

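Antisense rows left out of the set held few counts: CARS-AS1 had 40 counts over the 4 PZH libraries and 2 over the 4 DMSO libraries, and DARS-AS1 had 19 in PZH and 79 in DMSO. The pseudogene rows KARSP1 and IARS2P1 had 0 counts in every library, KARSP2 had 1 count in PZH and 5 in DMSO, and RARSP1 had 0 in PZH and 6 in DMSO.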
